A study of Mus musculus with 21 samples.

Results

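Wild-type (WT) mouse follicular B cells (FoB) that had been cultured for 24 h with anti-IgM were compared with WT bone marrow common lymphoid progenitors (CLPs) on 1-colour expression arrays. The members are the 6 arrays of those groups, 3 of each, chosen by their labels from the 21 arrays of the series. The series studied the transcription repressors Bach1 and Bach2 in lymphoid progenitors, multipotent progenitors and B cells, and its labels name no comparison across cell types. The FoB cells carried no mutation named in the labels and were held with 10 µg/ml of an anti-mouse IgM Fab' fragment, and no sorting gate is stated for them. CLPs came from pooled WT mice: bone marrow was partly cleared on beads of cells bearing T-cell (CD3e, CD4, CD8), B-cell (B220), NK-cell (NK1.1), erythroid (Ter119) and myeloid (Gr-1, CD11b) antigens, then stained for CD127, CD117, CD135 and Sca-1 and sorted. A further 6 arrays held the same cell types with other genotypes: Bach2-deficient (Bach2KO) FoB cells given the same stimulus, and CLPs deficient in both Bach1 and Bach2 (DD). Neither sex nor age is given in the labels. No unstimulated FoB array was used, so stimulus and stage of differentiation cannot be told apart.

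CLPs are bone marrow cells that have lost most myeloid potential and feed the lymphocyte lineages. They respond to Flt3 ligand and interleukin 7 and begin to express the recombination machinery. Follicular B cells are mature, resting B cells that recirculate through the follicles of spleen and lymph nodes and carry a finished antigen receptor. Crosslinking that receptor starts calcium, NF-kappa-B and growth signals, and within a day the cell enlarges and, with sufficient stimulus, prepares to divide.

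RNA handling differed completely between the groups. FoB RNA was prepared with one column kit and amplified by a linear low-input protocol, whereas CLP RNA was prepared with a micro kit and amplified over 2 rounds, and the arrays of each group lay on slides of their own (2 slides for FoB, 3 for CLP). Cell type, stimulus, RNA preparation, amplification and slide therefore cannot be told apart, and only differences that were large and fully separated are stressed. A level below is the log2 processed signal of a gene's brightest tested probe minus the 75th percentile of its array, so 0 is the 75th percentile of that array. The 75th percentile signal was 195 to 240 units on FoB arrays and 2999 to 5127 units on CLP arrays, and 54.6% to 55.4% of spots on FoB arrays, against 69.8% to 80.0% on CLP arrays, were well above background. Arrays correlated at 0.966 to 0.989 within FoB, 0.96 to 0.982 within CLPs and 0.805 to 0.84 between the cell types, across probes.

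Of 15812 genes tested, 3332 (21.1%) were higher and 4154 (26.3%) lower in FoB cells than in CLPs at an adjusted p under 0.05 (limma, Benjamini-Hochberg adjustment over 39206 probes), together 7486 genes (47.3%). The groups did not overlap for 59.7% of genes. A difference was called large where it passed that test, reached 8-fold, and put every array of one group above every array of the other, and had to do so again after quantile normalization. By that rule 602 genes (3.81%) were higher and 1295 (8.19%) were lower in FoB cells, together 12% of those tested. At the 75th percentile scaling alone the counts were 718 (4.54%) and 1302 (8.23%). Among the 18664 tested probes with no single gene name 1068 were higher and 750 lower by the same rule, and with genes required to be above background on all 6 arrays 485 were higher and 528 lower. By the probe used, 580 of the 1295 lower genes were not well above background on any FoB array, and for those only a least fold can be given: it reached 8 for 346 of them and stayed under 8 for 234. Likewise 31 of the 602 higher genes were not well above background on any CLP array, and all 31 had a least fold of 8 or more. Folds written "at least" below set the brighter group's mean against the background limit of the dim group's arrays.

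The choice of scaling mattered mainly for the brightest genes. Among the 1582 genes of highest mean level the median log2 difference was 0.55 at the 75th percentile scaling and -0.11 after quantile normalization, and the number of large higher calls there was 98 at the 75th percentile scaling alone and 24 when both scalings were required. Among 29 widely expressed reference genes the median difference was 1.88 at the 75th percentile scaling and 0.19 after quantile normalization. Rplp0, a ribosomal stalk protein, lay highest at 3.69 (0.57 after quantile normalization), Gpi1, a glycolytic isomerase, at the median with 1.88 (0.81), and Tbp, the TATA-binding protein, lowest at -1.66 (-1.61). The median over all genes was -0.11 and, after quantile normalization, -0.22.

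**Figure D1:**
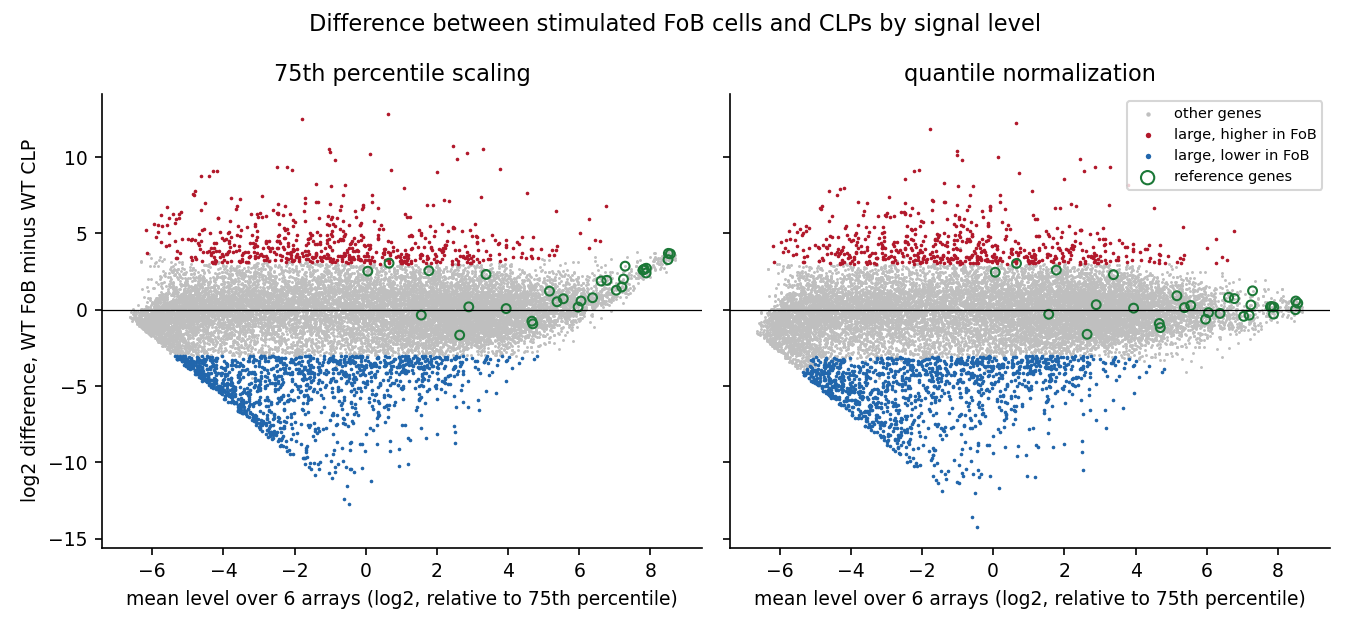
Log2 difference (WT FoB minus WT CLP, vertical axis) against mean level over the 6 arrays (horizontal axis) for each gene, at the 75th percentile scaling (left panel) and after quantile normalization (right panel). Red and blue points are the 602 higher and 1295 lower genes with a large difference under both scalings, and green circles are the reference genes, whose median is 1.88 in the left panel and 0.19 in the right.

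Mature B-cell surface genes stood far higher in FoB cells. Of 32 tested, 25 passed as higher and 3 as lower, against 21.1% and 26.3% of all genes. In this list 15 were large and higher and 1 was large and lower, against 3.81% and 8.19% of all genes. The median log2 difference was 3.50, against -0.11 over all genes. Ms4a1, which encodes CD20, showed the largest fitted rise of any named gene. Its level was 7.65, 6.66 and 6.81 on the FoB arrays and -7.25, -6.18 and -3.88 on the CLP arrays, where it was above background on 1 of 3. The difference was 12.81 ± 0.74 (log2, SE; limma adjusted p = 1.36e-06). The FoB arrays lay close together, and the CLP arrays spread more but were all far below them. Fcer2a, the low-affinity IgE receptor CD23 that marks follicular cells, had 2.92, 2.54 and 2.39 on FoB arrays and -3.004, -2.64 and -3.14 on CLP arrays (difference 5.54 ± 0.36, adjusted p = 2.48e-06).

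Receptors that place B cells in follicles and receive survival and T-cell signals were in the same list. Fcmr, the IgM Fc receptor, differed by 10.50 ± 0.38, Ccr6, the receptor for CCL20, by 9.85 ± 0.43, Cd40, which receives T-cell help, by 6.91 ± 0.59, and Cxcr5, the follicle-homing receptor, by 6.85 ± 0.53. Cr2, complement receptor CD21, differed by 6.09 and Tnfrsf13c, the BAFF receptor, by 4.05. Cd40 was above background on 2 of 3 CLP arrays and the other genes of these sentences on all 6 arrays. Against this trend, Cd1d1, which presents lipids and is high on marginal-zone B cells, was large and lower: it had 1.49, 0.49 and 0.85 on FoB arrays and 4.53, 4.62 and 4.11 on CLP arrays (difference -3.47 ± 0.39, adjusted p = 7.89e-05). Tnfrsf1b, a TNF receptor named after its values were seen, fell by 2.30 on the log2 scale.

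The antigen receptor's signalling parts were higher in FoB cells as a group. Of 29 tested genes, 20 passed as higher and 2 as lower, against 21.1% and 26.3% of all genes. Large differences were higher for 11 and lower for 1, against 3.81% and 8.19% of all genes, with a median difference of 2.56. Probes for the immunoglobulin constant regions Ighm, Ighd, Igkc and Iglc1 could not be matched by symbol, so the receptor chains themselves are not analysed here. Cd79a, the alpha chain that couples the receptor to kinases, had 2.84, 2.69 and 2.61 on FoB arrays and -4.54, -4.00 and -3.72 on CLP arrays (difference 6.80 ± 0.37, adjusted p = 9.79e-07). Its partner Cd79b differed less, by 4.04 ± 0.40, and its level in CLPs was 4.58, 4.33 and 3.84, well above the 75th percentile of those arrays. Pik3ap1, an adaptor that recruits PI3-kinase, differed by 6.97 ± 0.40, with 1 of its CLP values left out as a spot outlier. Prkcb, the protein kinase C that activates NF-kappa-B in B cells, differed by 4.22 ± 0.50. Ifitm3, an interferon-induced membrane protein that also acts in PI3-kinase signalling, was the large lower member at -5.14 ± 0.40.

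Of 28 B-lineage transcription factors, 17 passed as higher and 6 as lower, against 21.1% and 26.3% of all genes. Among them 10 were large and higher and none was large and lower, against 3.81% and 8.19% of all genes. Irf4, which rises with receptor signalling and directs plasma-cell and germinal-centre fates, had 6.46, 5.68 and 5.54 on FoB arrays and -1.19, -1.27 and -1.18 on CLP arrays (difference 7.11 ± 0.38, adjusted p = 8.81e-07). Pax5, the factor that commits cells to the B lineage, had -0.07, -0.90 and -0.50 on FoB arrays and -5.41, -5.59 and -5.92 on CLP arrays (difference 5.15 ± 0.38). The FoB and CLP values of both factors lay several log2 units apart. Zbtb32, a repressor induced in activated lymphocytes, differed by 6.21, Pou2f2, the octamer-binding factor Oct2, by 5.32, its co-activator Pou2af1 by 4.83, and Spib, an Ets factor, by 4.58. Ebf1, which acts with Pax5 in commitment, differed less (1.74 ± 0.48, adjusted p = 0.0149), and Ikzf1 (-1.12, adjusted p = 0.0327) and Runx3 (-2.38, adjusted p = 0.0014), Ikaros and Runt factors shared with other blood lineages, passed as lower.

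Bach2, the repressor at the centre of the series, had 3.49, 3.06 and 3.55 on FoB arrays and 3.46, 1.49 and 2.38 on CLP arrays. The groups overlapped, and the difference of 0.92 ± 0.50 missed the threshold (adjusted p = 0.16). Without WT CLP replicate 1 it was 1.43 (adjusted p = 0.0237), and with the median over probes 3.82 (adjusted p = 0.00013). A second Bach2 probe was dimmer on all 6 arrays, at -0.32, -0.01 and 0.16 on FoB arrays and -5.28, -7.97 and -7.08 on CLP arrays. It was above background on 1 of 3 CLP arrays and differed by 6.72, so the probes of this gene disagree. Bach1, the related repressor of heme-response genes, had 1.25, 0.94 and 0.90 on FoB arrays and 1.87, 1.96 and 2.17 on CLP arrays (difference -0.97 ± 0.35, adjusted p = 0.0427). That call was lost under 8 alternatives, among them the slide as a block (adjusted p = 0.169), the replicate block (adjusted p = 0.0704) and leaving out WT FoB replicate 2 or 3 or WT CLP replicate 2 or 3 (adjusted p = 0.0795 to 0.165).

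Antigen presentation genes of MHC class II were mostly higher in FoB cells. Of 18 tested, 11 passed as higher and 1 as lower, against 21.1% and 26.3% of all genes. In this list 6 were large and higher, against 3.81% of all genes. Cd74, the invariant chain, had 8.72, 8.29 and 8.14 on FoB arrays and -0.61, -1.40 and -0.43 on CLP arrays (difference 9.20 ± 0.40, adjusted p = 3.98e-07). H2-Aa, an alpha chain of the I-A molecule, had 7.08, 6.27 and 6.22 on FoB arrays and -3.45, -2.14 and -2.00 on CLP arrays (9.05 ± 0.48). H2-Ab1, its partner in I-A, and H2-Eb1, the beta chain of I-E, differed by 4.56 and 6.47, or 3.45 and 5.45 after quantile normalization. H2-DMb2, a peptide-loading chain, differed by 4.27 and Ifi30, a lysosomal thiol reductase, by 4.10. Ciita, the class II transactivator, had -5.26, 0.60 and 0.70 on FoB arrays and -0.23, -0.64 and -1.39 on CLP arrays, and the groups overlapped (-0.57 ± 1.31, adjusted p = 0.752).

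Genes known to respond to antigen-receptor signalling were mostly, but not uniformly, higher in FoB cells. Of 43 tested, 27 passed as higher and 4 as lower, against 21.1% and 26.3% of all genes. Large differences were higher for 16 and lower for none, against 3.81% and 8.19% of all genes (median difference 1.68). Cd83, an activation marker that stabilises MHC class II, had 8.38, 7.50 and 7.58 on FoB arrays and -2.27, -3.65 and -2.83 on CLP arrays (difference 10.74 ± 0.46, adjusted p = 3.88e-07). Il4i1, a secreted amino-acid oxidase, differed by 10.28 ± 0.38. Il2ra, the alpha chain of the interleukin 2 receptor CD25, had 4.04, 3.19 and 3.27 on FoB arrays and -4.45, -5.07 and -4.41 on CLP arrays (8.14 ± 0.40). In each of these genes the lowest FoB array lay far above the highest CLP array.

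Transcription factors and survival genes of the same response followed. Nr4a3, an orphan nuclear receptor induced by calcium signals, had -2.29, -1.65 and -2.02 on FoB arrays and was not well above background on any CLP array, which makes it at least 27.3-fold higher (adjusted p = 4.16e-06). Egr3 and Egr2, zinc-finger factors of the same response, differed by 4.82 and 4.55, Nfkb2 and Relb, partners in the alternative NF-kappa-B pathway, by 5.06 and 4.07, and Bcl2a1d and Bcl2l1, survival relatives of Bcl2, by 7.64 and 4.33. Bcl2a1d belongs to a family of near-identical genes whose probes may not tell the copies apart. Icam1, an adhesion receptor, differed by 3.08 ± 0.89, which became 1.80 without WT CLP replicate 1, and its adjusted p became 0.0548 without WT FoB replicate 1.

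Other early-response genes in this list behaved differently, and they were named after their values were seen. Myc, the growth regulator, had 4.58, 3.73 and 3.70 on FoB arrays and 3.31, 4.41 and 3.91 on CLP arrays, and the groups overlapped (difference 0.12 ± 0.43, adjusted p = 0.838). Cd69, an early activation marker, had 1.54, 0.84 and 0.50 on FoB arrays and 3.62, 4.66 and 3.49 on CLP arrays (-2.96 ± 0.45, adjusted p = 0.000506). Egr1, an immediate-early factor, had 4.17, 4.15 and 3.98 on FoB arrays and 6.25, 6.86 and 5.47 on CLP arrays (-2.09 ± 0.42, adjusted p = 0.00269). Cd80, a co-stimulatory ligand, passed as lower at -1.55, while Cd86, its relative, gave 0.06 ± 0.49 (adjusted p = 0.934).

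**Figure D2:**
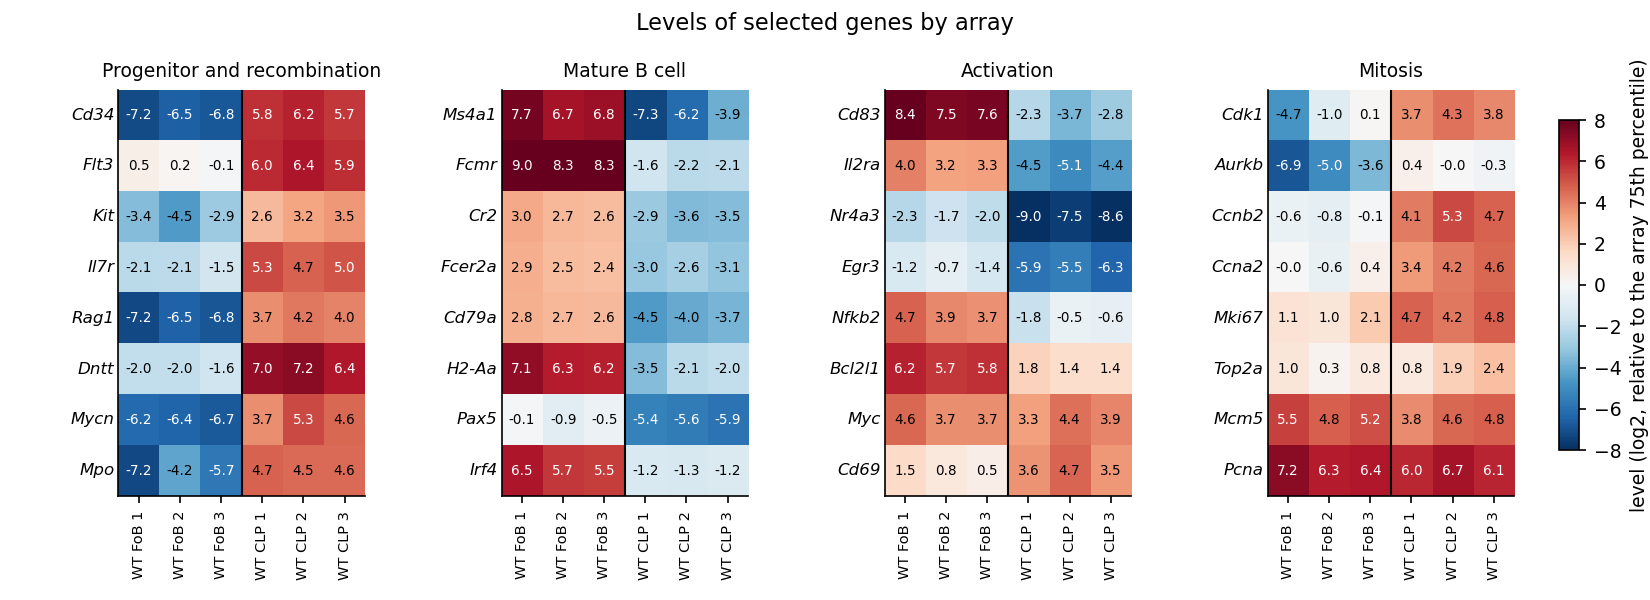
Levels (log2 relative to the 75th percentile of each array, colour and printed values) of 8 genes in each of 4 groups, with the 3 WT FoB arrays left of the line and the 3 WT CLP arrays right of it. Ms4a1 and Cd83 are high on the FoB side and Cd34 and Rag1 on the CLP side, whereas Myc and Pcna overlap between the groups and Cd69 is higher in CLPs.

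Growth genes moved in a more limited way. Of 36 genes of ribosome biogenesis and MYC-linked growth, 18 passed as higher and 1 as lower, against 21.1% and 26.3% of all genes. In this list 2 were large, both higher, a share near the 3.81% of all genes. The median difference was 1.14, or 0.94 after quantile normalization. Of the 29 reference genes, 18 passed as higher, with a median of 1.88 (0.19 after quantile normalization). Rrp12, a ribosome export factor, had 2.55, 1.72 and 1.76 on FoB arrays and -5.74, -3.43 and -3.31 on CLP arrays (6.17 ± 0.63), and Shmt2, the mitochondrial serine enzyme of one-carbon metabolism, differed by 3.30 ± 0.43. The nucleolar proteins Ncl and Npm1, named after their values were seen, differed by 2.61 and 2.18 at the 75th percentile scaling and by 1.55 and 0.01 after quantile normalization. Of 26 genes of glycolysis and the hypoxia response, 9 passed in each direction, against 21.1% higher and 26.3% lower over all genes. The glycolytic enzymes Aldoa (4.49), Pfkp (4.11) and Pkm (3.44) were large and higher. Egln3, an oxygen-sensing hydroxylase (at least 48.2-fold), and Vegfa, the angiogenic factor (-3.62), were large and lower. A second Pfkp probe differed by 1.42. A second Vegfa probe differed by -1.59 with overlapping groups (limma adjusted p = 0.136).

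Mitotic genes were lower in FoB cells. Of 38 replication and mitosis genes, none passed as higher and 22 passed as lower, against 21.1% and 26.3% of all genes. Among the 22 lower genes 11 were large, against 8.19% large and lower over all genes, and the list's median difference was -1.64. Ccnb2, cyclin B2, had -0.56, -0.77 and -0.08 on FoB arrays and 4.13, 5.30 and 4.72 on CLP arrays (difference -5.19 ± 0.42, adjusted p = 8.96e-06). Mki67, the proliferation marker, had 1.14, 1.00 and 2.09 on FoB arrays and 4.69, 4.24 and 4.80 on CLP arrays (-3.17 ± 0.41). Cdk1, the mitotic kinase, varied among FoB arrays, at -4.73, -0.96 and 0.08, against 3.74, 4.32 and 3.83 on CLP arrays (-5.83 ± 0.99, adjusted p = 0.001), and its difference was -4.40 without WT FoB replicate 1. Its 3 probes gave differences between -6.01 and -1.33.

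The other 16 genes of the list missed the threshold. Mcm5, a helicase subunit, had 5.47, 4.78 and 5.15 on FoB arrays and 3.78, 4.58 and 4.77 on CLP arrays (0.76 ± 0.40, adjusted p = 0.154). Pcna, the sliding clamp, had 7.25, 6.30 and 6.44 on FoB arrays and 6.01, 6.68 and 6.08 on CLP arrays (0.40 ± 0.41, adjusted p = 0.452), and its sign turned after quantile normalization (-0.89). Both were named after their values were seen. The G1/S cyclin gene Ccne2 was not well above background on any FoB array and was at least 9.57-fold lower.

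Progenitor genes formed the opposite side of the contrast. Of the 4 genes behind the CLP sorting stains 3 were large and lower in FoB cells, which is a property of the sort and not a finding: Il7r (-6.90), Kit (-6.69) and Flt3 (-5.90). The other, Ly6a, which encodes Sca-1, had 2.56, 2.48 and 2.23 on FoB arrays and 1.81, 1.87 and 1.89 on CLP arrays; the groups did not overlap, but the difference of 0.57 ± 0.34 missed the threshold (adjusted p = 0.201). Of 29 progenitor surface receptors, 4 passed as higher and 15 as lower, against 21.1% and 26.3% of all genes. Large differences were higher for 1 and lower for 12, against 3.81% and 8.19% of all genes (median -1.36). The 12 include Il7r, Kit and Flt3. Cd34, a sialomucin of early progenitors, had 5.85, 6.16 and 5.68 on CLP arrays by its brightest probe, which was not well above background on any FoB array (at least 1456-fold lower in FoB cells, adjusted p = 3.54e-07). A dimmer Cd34 probe was above background on 1 of 3 FoB arrays and differed by -4.40, so the probes disagree on the size. Cd93, a receptor of early B cells and progenitors, had 1.45, 0.36 and 1.01 on FoB arrays and 6.49, 6.58 and 6.07 on CLP arrays (-5.44 ± 0.40). Slamf1, which marks stem cells but also activated lymphocytes, was the large higher member at 4.57 ± 0.35 and was above background on 2 of 3 CLP arrays.

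Of 35 regulators of stem and progenitor cells, none passed as higher and 26 passed as lower, against 21.1% and 26.3% of all genes. Among the 26 lower genes 20 were large, against 8.19% large and lower over all genes (list median -4.23). Of the 20, 10 were not well above background on any FoB array, and 2 of those (Gata2 and Hoxa10) had a least fold under 8. Mycn, the MYC relative of progenitors, had 3.73, 5.30 and 4.61 on CLP arrays and was at least 571-fold lower in FoB cells. Meis1, a homeobox partner of the Hox proteins, was above background on all 6 arrays and differed by -6.99 ± 0.36 (adjusted p = 7.18e-07). Hoxa9, which cooperates with it, was likewise measured on all arrays and differed by -4.70 ± 0.34.

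Pre-B receptor and recombination genes followed the same direction: of 22 tested, 2 passed as higher and 13 as lower, against 21.1% and 26.3% of all genes. In this list 12 were large and lower, against 8.19% of all genes, Il7r again among them. Rag1, a subunit of the recombinase that assembles antigen-receptor genes, had 3.72, 4.24 and 3.99 on CLP arrays and was at least 387-fold lower in FoB cells (adjusted p = 3.54e-07). Its partner Rag2 was at least 143-fold lower. Dntt, the terminal transferase that adds bases at the joins, was above background on all arrays, at -1.97, -1.99 and -1.61 in FoB cells and 7.01, 7.25 and 6.41 in CLPs (-8.75 ± 0.38). The surrogate light-chain gene Vpreb1 differed by -5.56 and its partner Igll1 was at least 23.3-fold lower. Lef1, a Wnt-pathway factor of early B cells that is also found in activated cells, was the large higher member at 6.25 ± 0.47, above background on 2 of 3 CLP arrays.

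**Figure D3:**
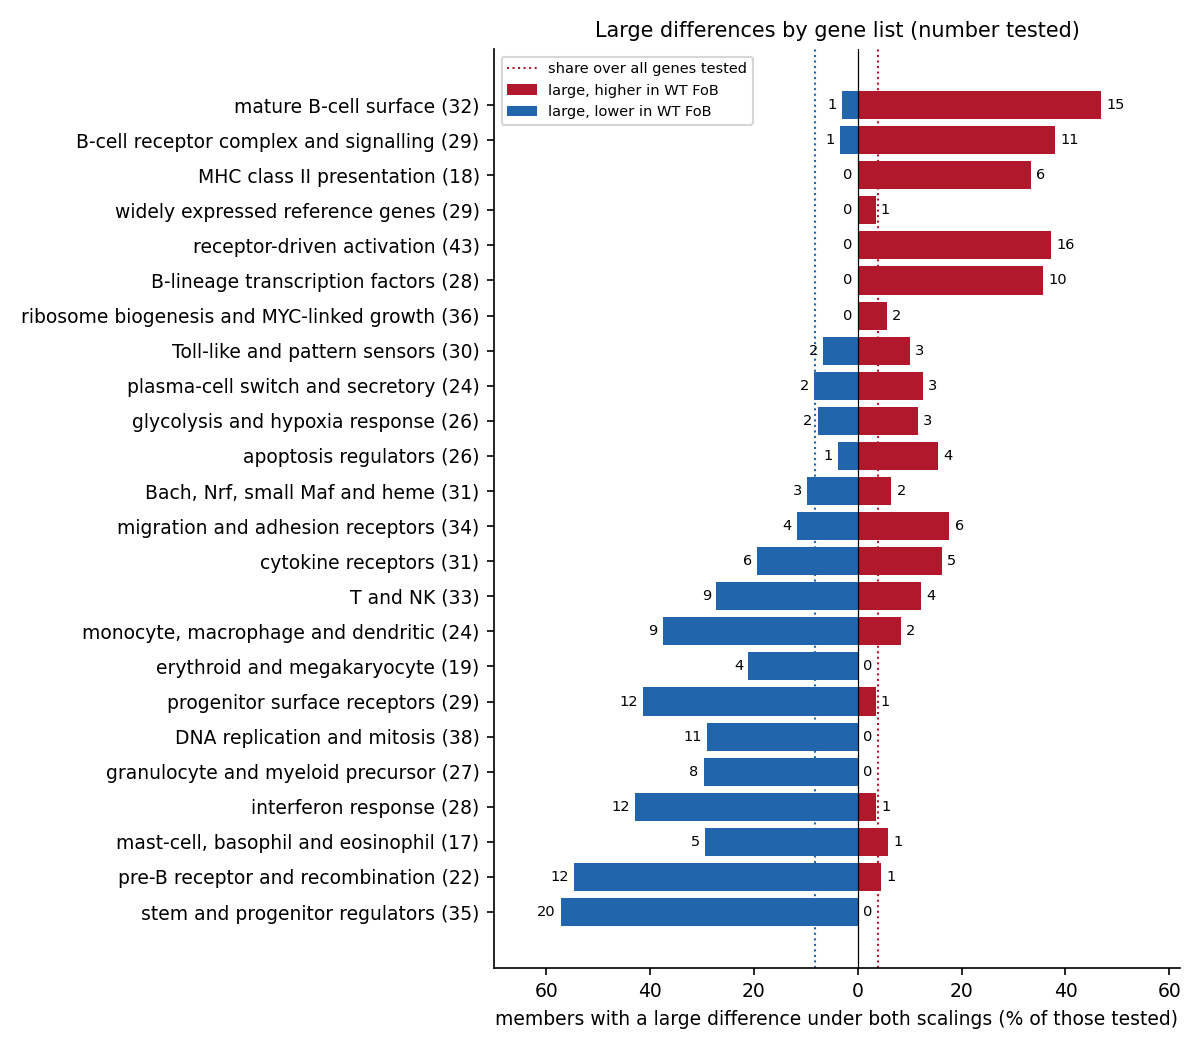
Share of tested members of each gene list with a large difference under both scalings (horizontal axis, percent; red bars right, higher in WT FoB; blue bars left, lower in WT FoB), with the number of genes at each bar and the number tested in parentheses. Dotted lines mark 3.81% higher and 8.19% lower over all genes tested. B-cell and activation lists lie beyond the first line, progenitor and recombination lists beyond the second. Many other lists also lie beyond a line, such as T and NK genes beyond both and interferon-response genes beyond the second.

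Interferon-response genes were lower in FoB cells. Of 28 tested, 1 passed as higher and 18 as lower, against 21.1% and 26.3% of all genes. In this list 12 were large and lower, against 8.19% of all genes (median difference -2.19). Gbp3, an interferon-induced GTPase, had 0.91, -0.18 and 0.18 on FoB arrays and 4.43, 4.97 and 4.56 on CLP arrays (-4.35 ± 0.40, adjusted p = 2.24e-05). Rsad2, the antiviral enzyme viperin, was not well above background on any FoB array and was at least 43.2-fold lower. Ifit3, an RNA-binding antiviral protein, was above background on 2 of 3 FoB arrays and differed by -4.88 ± 0.53. Cxcl10, a chemokine, had a least fold under 8 (4.25). Zbp1, a nucleic-acid sensor, was the large higher member at 3.73 ± 0.38.

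The RefSeq promoters (GRCm38.p6, the 250 bases before each start) were searched on both strands for the core of the interferon-stimulated response element (GAAA, any 2 bases, GAAA). This choice was made after the values were seen. Of the 28 interferon-response genes 22 had a promoter in the table and 13 of these held a match (59.1%), against 3.36% of the 12605 promoters of all genes tested. The list was drawn up for interferon response and was searched whatever the direction of its members here. That share therefore does not bear on the contrast. Windows of 4 members that were large and lower are shown with each match in capitals, read 5′ to 3′ along the gene's strand, so that a match on the other strand reads TTTC, 2 bases, TTTC.
Gbp3 promoter (chr3:142559979-142560034, + strand): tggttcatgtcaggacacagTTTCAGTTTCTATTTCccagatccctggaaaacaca
Ifit3 promoter (chr19:34583353-34583436, + strand): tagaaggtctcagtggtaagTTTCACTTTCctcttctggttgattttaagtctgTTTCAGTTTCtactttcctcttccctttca
Rsad2 promoter (chr12:26456543-26456592, - strand): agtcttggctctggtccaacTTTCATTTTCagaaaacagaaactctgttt
Oas1a promoter (chr5:120907526-120907565, - strand): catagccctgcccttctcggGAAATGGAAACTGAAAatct
Gbp3 and Oas1a each hold 2 overlapping matches and Ifit3 holds 2 that lie apart. Among all large calls the match was found in 2.54% of higher and 4.47% of lower genes with a promoter. A match describes the letters and is not evidence of binding.

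The octamer ATGCAAAT, the element read by Oct2 and its co-activator, and the exact NF-kappa-B site of the immunoglobulin kappa enhancer were searched in the same way because Pou2f2, Pou2af1, Nfkb2 and Relb were large and higher. The octamer lay in 3.17% of promoters of large higher genes, 2.14% of large lower genes and 1.59% of all genes. The NF-kappa-B site lay in 1.06%, 0.195% and 0.214% of the same sets, which is 5, 2 and 27 genes. The promoters of Ccr6, Prkcb and Nfkb2, all large and higher, are shown with the octamer (Ccr6, on the other strand, and Prkcb) or the NF-kappa-B site (Nfkb2) in capitals.
Ccr6 promoter (chr17:8235955-8236002, + strand): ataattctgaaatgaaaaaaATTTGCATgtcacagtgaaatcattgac
Prkcb promoter (chr7:122289035-122289082, + strand): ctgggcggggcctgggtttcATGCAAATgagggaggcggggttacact
Nfkb2 promoter (chr19:46305685-46305734, + strand): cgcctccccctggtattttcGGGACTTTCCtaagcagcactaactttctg

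Cytokine and pattern-recognition receptors were divided. Over all genes 21.1% passed as higher and 26.3% as lower, and 3.81% and 8.19% were large. Of 31 cytokine receptors 9 passed as higher and 11 as lower, with 5 and 6 large, Il7r among the 6. Lepr, the leptin receptor, was higher by 6.76 ± 0.58 and the common gamma chain Il2rg by 3.75. Ltbr, the lymphotoxin-beta receptor, was not well above background on any FoB array and was at least 306-fold lower. Tnfrsf1a, a TNF receptor, was large and lower, but its probes disagreed in size: the brightest was not well above background on any FoB array and gave at least 195-fold, while the other was measured on all 6 arrays and differed by -3.83. Among 30 Toll-like and pattern sensors 10 passed as higher and 4 as lower. The adaptor Ticam1 (5.80) and the lipopeptide receptor Tlr1 (5.10) were large and higher, and Tlr12, a profilin receptor (-5.63), and Nod2, a peptidoglycan sensor (at least 2.997-fold), large and lower. Of 34 migration receptors 12 passed as higher and 9 as lower. The 6 large and higher, against 3.81% of all genes, included Gpr183, the oxysterol receptor that positions B cells at the follicle edge (6.45), and Ccr7, which guides cells toward T zones (3.99). The 4 large and lower, against 8.19% of all genes, were Ltb4r1, the leukotriene B4 receptor (-5.30), Ccr9, the CCL25 receptor (-4.68), Rgs1, a G-protein regulator (-3.69), and Ccr2, the CCL2 receptor (at least 3.44-fold). In the heme and oxidative-stress list, 31 tested, Nqo1, a quinone reductase, was large and higher (5.79, above background on 1 of 3 CLP arrays) and Nfe2, the erythroid and megakaryocyte factor, large and lower (-6.92, above background on 2 of 3 FoB arrays).

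The plasma-cell list gave no single direction: of 24 tested, 6 passed as higher and 4 as lower. Over all genes the shares, for this list and the next, were 21.1% higher and 26.3% lower. Mzb1, a chaperone of secreting B cells, was large and higher (3.26), whereas Sdc1, the plasma-cell marker syndecan, had 0.48, -0.54 and -0.66 on FoB arrays and 3.00, 3.05 and 2.67 on CLP arrays (-3.15 ± 0.41). Tnfrsf17, the receptor BCMA, was lower with a least fold of 6.35. Of 26 apoptosis regulators, 9 passed as higher and 2 as lower, and Pim2, a survival kinase (3.53), and Bcl2l11, the killer protein Bim (3.45), were both large and higher.

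Several of the largest differences belonged to no list. Bcar3, an adaptor of integrin signalling, had 5.17, 4.08 and 4.13 on FoB arrays and was above background on 1 of 3 CLP arrays (12.49 ± 0.65). Dtx1, a Notch-pathway ligase of the B lineage, was measured on all 6 arrays and differed by 9.16 ± 0.39. Scd1, a fatty-acid desaturase, differed by 10.30 ± 0.66 and was above background on 1 of 3 CLP arrays. On the other side Adgrg3, an adhesion-type receptor, was measured on all arrays, at -4.73, -3.76 and -4.06 in FoB cells and 6.20, 6.31 and 5.70 in CLPs (-10.25 ± 0.40). Emp1, an epithelial-type membrane protein, was at least 1347-fold lower in FoB cells.

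Markers of other cell types moved with the contrast. All 8 follicular B-cell markers were above background on every FoB array, with a summed level of 8.65 to 9.51 in FoB cells and 3.93 to 4.66 in CLPs. All 8 CLP markers were above background on every CLP array, with a summed level of 6.84 to 7.96 in FoB cells and 8.55 to 9.08 in CLPs, where Ly6d, shared by B cells and lymphoid progenitors, accounts for much of the FoB sum (6.80 to 7.93 in FoB cells and 5.69 to 6.82 in CLPs). The 6 T-cell markers summed to 6.42 to 7.09 in FoB cells and 4.99 to 5.44 in CLPs. Cd3e, which CLP preparation depleted, had 2.19, 2.56 and 2.44 on FoB arrays and -1.86, -1.01 and -1.26 on CLP arrays (3.77 ± 0.38), and Cd3d and Cd2, further T-cell genes, were large and higher. For Cd4 and Cd8a, the co-receptor genes, the probes disagreed in sign. The part of other cells in the differences was not tested.

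NK-cell and granulocyte genes went the other way or varied. Of 3 NK markers none was above background on any FoB array, and Ncr1, the defining receptor, was above it on 1 CLP array and was not tested. The sum was -3.93 to -3.36 in FoB cells and 2.87 to 5.47 in CLPs. Klrd1, the receptor chain CD94, was at least 373-fold lower in FoB cells. Of 33 T and NK genes, 4 were large and higher (3.81% of all genes) and 9 large and lower (8.19% of all genes). Genes of the depleted antigens are counted here: Cd3e is among the 4, and Klrb1c, which encodes NK1.1, is among the 9. The 9 include T-cell genes, among them the co-stimulatory receptors Icos and Cd28, at -8.68 and -4.83. Icos was above background on 1 of 3 FoB arrays, and its other probe differed by -4.61. Of 27 genes of granulocytes and their precursors 8 were large and lower and none large and higher, against 8.19% and 3.81% of all genes. Mpo, myeloperoxidase, was at least 593-fold lower in FoB cells, whereas Elane, another granule enzyme, gave 0.92 ± 0.68 (adjusted p = 0.297), or 1.81 without WT FoB replicate 1 (adjusted p = 0.00635).

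One CLP array stood apart for mature neutrophil genes. S100a9, a calcium-binding protein of neutrophils, had -1.33, 2.55 and 1.69 on FoB arrays and -6.21, -6.33 and 3.96 on CLP arrays, so CLP replicate 3 was above every FoB array while the other CLPs were below. The difference was 3.83 ± 2.32 (adjusted p = 0.205) and 7.24 without CLP replicate 3 (adjusted p = 0.000775). S100a8, its partner, showed the same split, with 2.20 on CLP replicate 3 and -7.67 and -7.54 on the other CLP arrays. Without that array 3 genes of the granulocyte list, against none with it, were large and higher in FoB cells. FoB replicate 1 was the lowest FoB array for Mpo, Elane, S100a8 and S100a9, and the granulocyte marker sum was 0.57, 4.02 and 3.11 on FoB arrays and 4.80, 4.62 and 5.99 on CLP arrays.

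**Figure D4:**
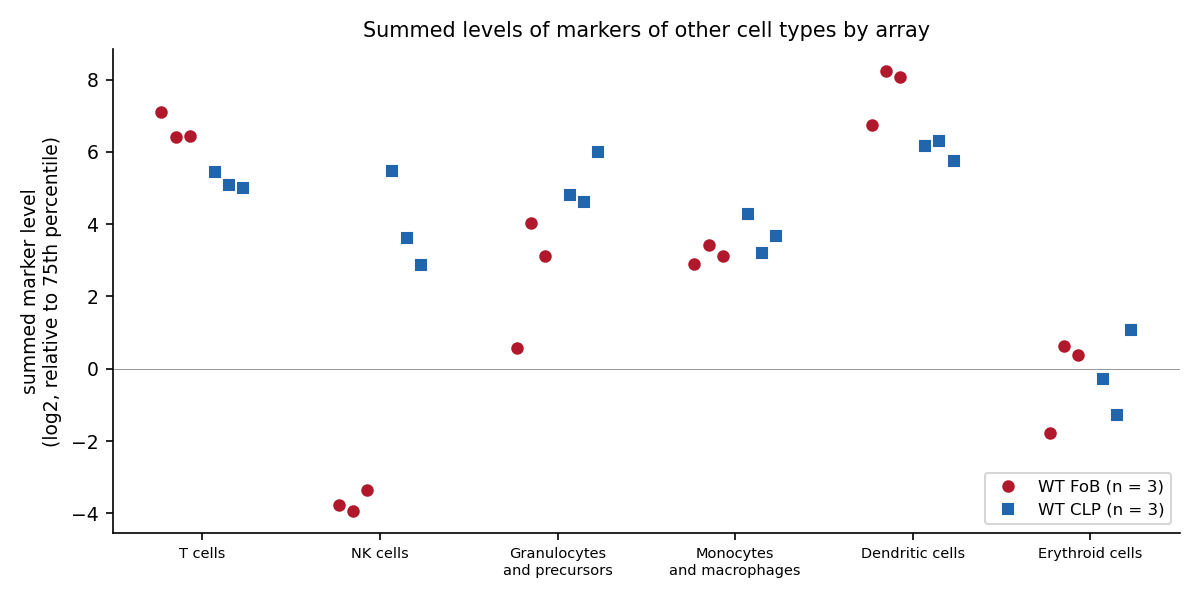
Summed level of the marker genes of 6 other cell types (log2 relative to the 75th percentile of each array), with the 3 WT FoB arrays as red circles left of the 3 WT CLP arrays as blue squares. NK markers separate the groups with CLPs higher, and T-cell markers, whose sum is mostly Lck, separate them with FoB cells higher. Granulocyte markers spread from 0.57 to 4.02 among FoB arrays.

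Dendritic and monocyte genes depended on the probe and gene. The dendritic sum of 6.75 to 8.23 in FoB cells and 5.74 to 6.29 in CLPs was that of 1 bright Siglech probe, which differed by 1.67, or 0.33 after quantile normalization (adjusted p = 0.539), and whose call was lost without WT FoB replicate 2 or 3 or WT CLP replicate 3 (adjusted p = 0.0552 to 0.0561). A second probe of Siglech, a receptor of plasmacytoid dendritic cells, was not well above background on any FoB array and had 5.07, 3.12 and 3.67 on CLP arrays. Of 24 tested monocyte, macrophage and dendritic genes, 4 passed as higher and 12 as lower. In that list 2 were large and higher (3.81% of all genes) and 9 large and lower (8.19% of all genes). The 9 include Flt3, a gene of the CLP sorting stains, whose fall is a property of the sort. Itgax, the integrin CD11c, was large and lower (-4.58). Adgre1, the macrophage marker F4/80, was 1 of the 2 large higher genes (5.61 ± 0.46). Sex-linked genes also differed among arrays: Uty, on the Y chromosome, was large and higher by 1 probe, which was not well above background on any CLP array (at least 12.6-fold), while its other probe differed by 2.19 ± 1.11 with overlapping groups (adjusted p = 0.133). Xist had -1.38, -4.03 and -6.76 on FoB arrays and -1.41, -2.01 and -0.75 on CLP arrays.

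The contrast was repeated in arrays that the WT fit did not use. Between Bach2KO FoB cells and DD CLPs, 717 of 15448 genes (4.64%) were large and higher and 1229 (7.96%) large and lower. Of the genes tested in both pairs, 464 of the 594 WT large higher genes (78.1%) and of the 692 in the second pair (67.1%) were large and higher in both. For lower genes it was 994 of 1266 (78.5%) and of 1224 (81.2%). No WT large gene was large in the opposite direction, all 594 higher genes kept their sign and 1258 of the 1266 lower genes did. The second pair shares the differences in RNA preparation and amplification and lay on the same slides, group for group, and its genotypes differ from the first pair and from each other, so its overlap does not bear on those differences.

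**Figure D5:**
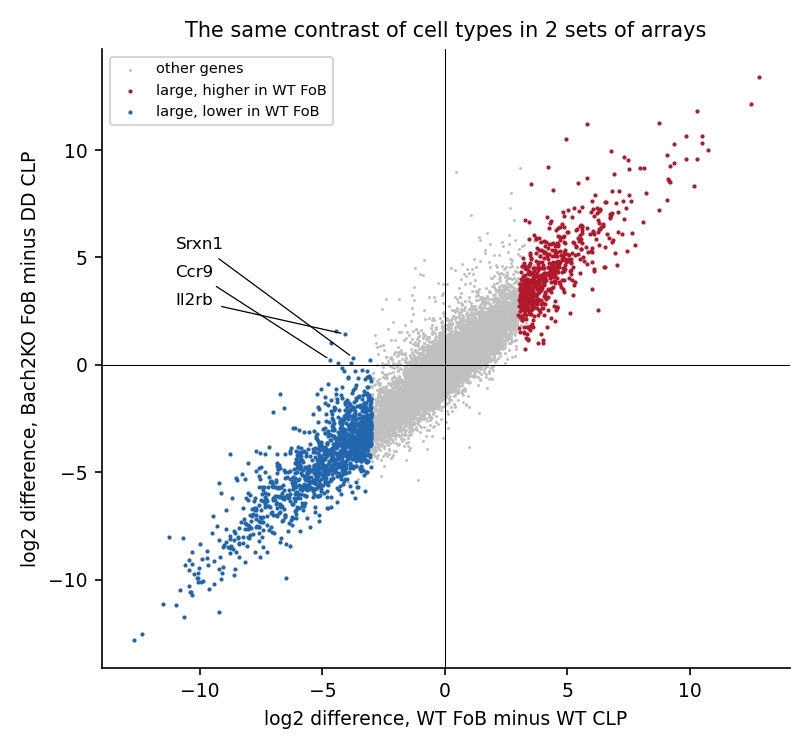
Log2 difference of each gene in Bach2KO FoB minus DD CLP (vertical axis) against that in WT FoB minus WT CLP (horizontal axis), both at the 75th percentile scaling. Red and blue points are large in the WT pair and keep their sign for 594 of 594 higher and 1258 of 1266 lower genes. The labelled genes Il2rb, Ccr9 and Srxn1 lie at 1.43, 0.22 and 0.34 on the vertical axis.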

How the data were processed

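The authors deposited Agilent Feature Extraction output for each array with its processed signal intensity, which the software had background-subtracted and detrended, and a table of the same intensity values. Per the file headers the software was version 10.7.3.1, and per the submitters' processing notes it was 9.1. Scaling by the authors between arrays is not given in the sources used here. Each array held 62976 spots, 3671 of them controls, which were left out with outlier spots, and no spot was saturated. The value table equalled the scanner values.

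Log2 intensity minus each array's 75th percentile was tested per probe with limma 3.58.1 in R 4.3.3 (lmFit, eBayes), for probes that cleared the scanner's background test on 3 or more of the 6 arrays and had 2 or more values in each group. Of 55681 probes 26413 had 1 gene name. A gene stood by its brightest tested probe. Sequences were from RefSeq. The difference between the 2 pairs of groups was tested over 12 arrays. The fit was tested on simulated data for the WT contrast, with 50 of 39206 probes changed at each fold. It found 0% of those changed 2-fold, 6% at 4-fold, 56% at 8-fold and 72% at 16-fold. Of 70 probes called, 3 were false. Far fewer probes were changed there than passed here, so these shares do not give the recovery in the real contrast.

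Named genes were the 20 largest rises and 20 largest falls among large calls (leaving out sex-linked genes and uninformative names), up to 6 per list and direction, the sorting, depletion and cell-type markers, Bach1 and Bach2, and 3 reference genes. Some list members are counted but not reported here by name. Members and lists were chosen with earlier results of these data known. The labels speak of pooled mice for CLP replicates and of a single RNA sample for FoB cells, without saying whether FoB replicates were separate cultures, so p-values measure the spread between these arrays. Replicate numbers did not pair the arrays: same-numbered FoB and CLP arrays correlated at -0.124, 0.01 and -0.073 in their deviations. Alternatives were other scalings, background correction, filters, probe rules, variance models, blocks, fold limits and leaving out each array. The files hold no mean-signal column, so the background-corrected alternative used the median signal. The interaction test and the motif search were chosen after seeing the data.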

Additional observations from a re-analysis of the deposited data

Results flagged for a closer look

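Il2rb, Ccr9 and Srxn1 differed between the WT pair (WT FoB minus WT CLP) and the second pair (Bach2KO FoB minus DD CLP) by a test of that difference over all 12 arrays (limma), under both scalings. The test passed for 34 of 15812 genes at the 75th percentile scaling and for 41 after quantile normalization, and 1192 genes had an unadjusted p under 0.05. Other genes passed under both scalings and are not described here, among them Rgs16, with differences -6.11 apart (adjusted p = 0.00119). Il2rb, the beta chain of the interleukin 2 and 15 receptors, had 2.07, 1.87 and 2.03 on Bach2KO FoB arrays and 1.15, 0.41 and 0.13 on DD CLP arrays. In the WT pair it had -2.65, -2.56 and -2.68 on FoB arrays and 1.67, 1.47 and 1.20 on CLP arrays. Its difference was -4.08 in the WT pair and 1.43 in the second pair, -5.5 apart (adjusted p = 0.00119).

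Ccr9, the chemokine receptor that guides cells to thymus and gut, had 0.87, 0.64 and 0.49 on Bach2KO FoB arrays and 0.74, 0.24 and 0.34 on DD CLP arrays. Its difference was -4.68 in the WT pair and 0.22 in the second pair (adjusted p = 0.697). The 2 differences were -4.9 apart (adjusted p = 0.00278). Srxn1, the enzyme that repairs oxidised peroxiredoxins, had 1.86, 0.83 and 1.09 on Bach2KO FoB arrays and 1.17, 1.24 and 0.37 on DD CLP arrays. Its difference was -3.75 in the WT pair and 0.34 in the second pair (adjusted p = 0.606). Those differences were -4.09 apart (adjusted p = 0.0277). For all 3 genes the WT FoB arrays were the lowest of the 4 groups. The genotypes of both cell types change between the pairs, so a change in FoB cells and one in CLPs are both part of these values.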

How the results depend on the processing

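Where tested, large calls under both scalings kept the same direction under every alternative run except the median over probes, under which 8 of 1897 turned. Quantile normalization is part of the call, so its result was fixed in advance. With signal required on all 6 arrays, 1013 of the 1897 could be tested. Normexp background with quantile normalization left 55.3% of the 1897 large and gave 320 higher and 750 lower, against 718 and 1302 at the 75th percentile scaling alone; that correction adds an offset of 50. Requiring signal on all 6 arrays, which drops genes dim in one group, gave 530 lower at the 75th percentile scaling, 528 lower against 485 higher under both scalings and 122 large list members in place of 199. Without a filter 5322 genes passed as higher. With 4-fold in place of 8-fold the counts were 1443 higher and 2309 lower, and with 16-fold 287 and 796.

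Leaving out each array in turn gave 558 to 653 higher and 1274 to 1328 lower under both scalings, 705 to 754 and 1279 to 1341 at the 75th percentile scaling, 195 to 206 list members, and 2651 to 3217 genes passing as higher and 3324 to 4315 as lower. With the replicate block the counts were 600 higher and 1292 lower, and 2965 and 3736 genes passed; the numbers did not pair the arrays.

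Of named genes that reversed, none had passed except Siglech, at -4.24 with the median over its probes. Cd8a was at 1.20 with that median. Ly6d was at -0.52 after quantile normalization and -0.35 with normexp. Camp was at 0.17 without WT FoB replicate 1 and 2.00 without WT CLP replicate 3, and ranged from -2.34 to 2.00 over arrays left out. Hba-a1 was at -0.04 without WT FoB replicate 2 and -0.51 without WT CLP replicate 2, and ranged from -0.51 to 1.23. The causes were not tested. Signal over background was lower on the FoB arrays, and its part in the dim calls was not tested. Of 434 large calls in genes with several probes, all tested probes were large for 171, and 83 had a probe of opposite sign.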
